A study of Mus musculus with 10 samples.

Results

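Prostaglandin and other eicosanoid pathway genes are described here across LPS-treated and control mouse hearts. They are Ptgs1, Ptgs2, Ptges, Ptgis, Ptger2, Ptger4, Ptgds, Hpgd, Alox5ap and Pla2g4a, chosen by name as 10 genes of this pathway among the 54532 genes of the count table. All 10 were found once each, and 9 passed the filter on low counts, as did 13864 genes in all. Their mRNA was counted in hearts of 8-week-old C57BL/6 mice, 5 libraries from mice 24 h after lipopolysaccharide (LPS, an outer membrane component of Gram-negative bacteria used to model sepsis) and 5 from mice injected with saline. No mutation or other agent is named in the labels, and they state neither the dose and route of LPS nor the sex of the mice. The labels number the libraries 1 to 5 in each group without saying whether mice were pooled, and each library is called a heart here. The libraries were made from heart RNA, so fewer cells of a type and less RNA per cell cannot be told apart.

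Prostaglandins and leukotrienes are lipid signals made on demand from arachidonic acid. A phospholipase frees arachidonic acid from membranes, a cyclooxygenase turns it into the intermediate PGH2, and terminal synthases turn PGH2 into prostaglandin E2, prostaglandin D2, prostacyclin or thromboxane, each read by receptors of its own. A separate branch, started by 5-lipoxygenase with its partner FLAP, gives leukotrienes. In the heart and its vessels these signals are known for control of vessel tone, vessel leak, platelet activity and fever-type inflammation.

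Total counts were between 14607969 and 17012372 per library in LPS hearts and between 15586690 and 16786516 in saline hearts. The 8 cardiomyocyte markers checked summed to between 41503 and 44717 CPM (counts scaled to a common library size) in LPS hearts and between 38129 and 46544 CPM in saline hearts, with 0 of 8 past the threshold in edgeR or DESeq2, and 0 at an unadjusted p under 0.05. Saline replicate 5 stood apart from the other saline libraries: in a principal component analysis of 1000 variable genes it lay on component 1 at -0.563, against 43.7 to 55.0 for LPS libraries and -67.0 to -55.1 for saline replicates 1 to 4. Among the 9 tested genes described here it lay outside the range of saline replicates 1 to 4 in 6, and in 5 of these on the side of the LPS mean. Log2 fold changes without saline replicate 5 are given beside those with it for the 5 genes that passed, and in the plot of fold changes for all 9.

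LPS hearts held far more Ptgs2, more Ptges and more Pla2g4a mRNA than saline hearts, and less Ptgs1 and Alox5ap. Of the 9 tested genes 3 rose, 2 fell and 4 did not pass the threshold (edgeR quasi-likelihood test, adjusted p below 0.05 over all tested genes). Over all 13864 tested genes 39.9% passed, as 18.9% rose and 21.0% fell, so the counts of 3 and 2 among 9 are no result about the set. Log2 fold changes, LPS over saline, are given below with their SE. The same 3 rose and the same 2 fell without saline replicate 5, where 21.0% and 22.9% of tested genes rose and fell. The median log2 fold change of the 9 genes was 0.22, against -0.02 for all tested genes, and 0.09 without saline replicate 5. In Ptgs2 and Pla2g4a every LPS library lay above every saline library, which held for 14.3% of tested genes, and in Ptgs1 every LPS library lay below, which held for 14.1%.

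**Figure D1:**
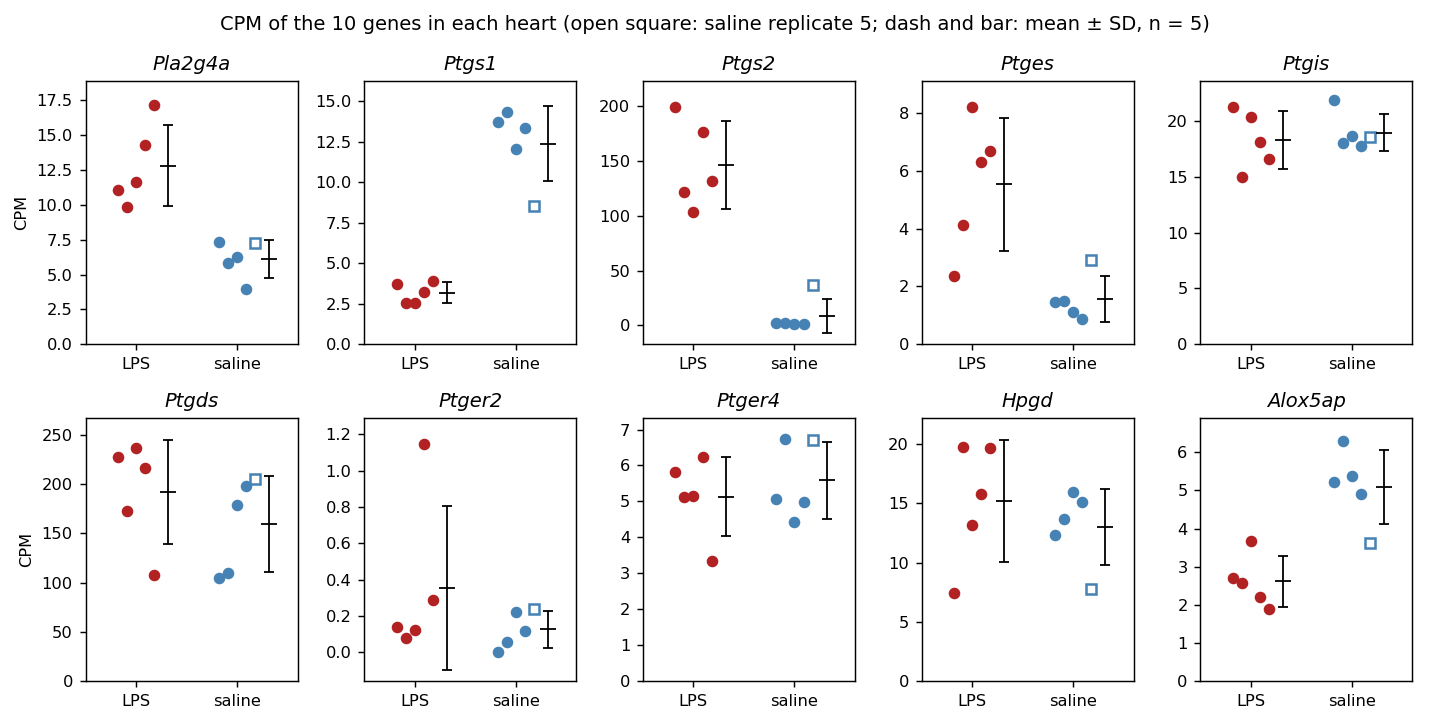
CPM (y axis, linear, a separate scale for each gene) of the 10 genes in 5 LPS hearts and 5 saline hearts; each point is 1 library, an open square is saline replicate 5, and dash and bar are mean ± SD. The LPS points of Ptgs2 and Pla2g4a lie above the saline points, those of Ptgs1 lie below them, and in the other 7 genes the groups overlap.

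Pla2g4a encodes cytosolic phospholipase A2 alpha, the enzyme that frees arachidonic acid when calcium rises (GRCm38 chromosome 1, 149829618 to 149961290, minus strand). It was at 11.1, 9.88, 11.7, 14.3 and 17.2 CPM in LPS replicates 1 to 5, against 7.30, 5.80, 6.23, 3.99 and 7.25 CPM in saline replicates 1 to 5. The groups did not overlap, and saline replicate 5 lay within the range of the other saline hearts. Pla2g4a rose with a log2 fold change of 1.07 ± 0.19 (edgeR, adjusted p = 0.000476, 5 hearts a group), a 2.09-fold rise, and 1.14 without saline replicate 5.

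Of 10 other tested genes that release arachidonate or its precursors 1 rose and 3 fell, against 18.9% rising and 21.0% falling over all tested genes. Pla2g12a, a secreted phospholipase, rose by 0.29 ± 0.08 on the log2 scale (edgeR adjusted p = 0.0126), with averages of 51.0 ± 3.05 CPM in LPS hearts and 41.6 ± 3.25 CPM in saline hearts (SD, n = 5 each). Pla2g15, a lysosomal phospholipase, and Pla2g2d, a secreted one, fell, with log2 fold changes of -1.57 ± 0.26 and -1.51 ± 0.34. Another that fell was Mgll, the lipase that frees arachidonate from the endocannabinoid 2-arachidonoylglycerol, at 59.5 ± 13.9 CPM in LPS hearts and 167 ± 43.8 CPM in saline hearts (log2 fold change -1.49 ± 0.20). Every LPS heart lay below every saline heart in these 3 genes, and Mgll had the most reads of them.

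The cyclooxygenases moved in opposite directions, and Ptgs2 passed Ptgs1 in level per length. Ptgs2, the inducible enzyme (chromosome 1, 150100031 to 150108227, plus strand), was at 199, 121, 103, 177 and 132 CPM in LPS replicates 1 to 5. Saline replicates 1 to 4 held 1.72, 2.17, 1.46 and 1.39 CPM, and saline replicate 5 held 36.5 CPM. Every LPS heart thus lay well above every saline heart, and saline replicate 5 was 21.6 times the mean of the other saline hearts. The log2 fold change of Ptgs2 was 4.09 ± 1.09 (edgeR, adjusted p = 0.0171, 5 hearts a group), and 6.44 ± 0.25 without saline replicate 5 (adjusted p = 3.9e-10). With limma voom, which works on log values, it was 5.55.

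Ptgs1, the enzyme that most tissues make at a steady level (chromosome 2, 36230426 to 36252272, plus strand), was at 3.74, 2.57, 2.52, 3.19 and 3.93 CPM in LPS replicates 1 to 5. Saline replicates 1 to 5 held 13.7, 14.3, 12.1, 13.3 and 8.50 CPM. The groups did not overlap, and saline replicate 5 was the lowest of its group. Ptgs1 fell with a log2 fold change of -1.96 ± 0.18 (edgeR, adjusted p = 2.55e-06, 5 hearts a group), and -2.06 without saline replicate 5. Endothelial cells, macrophages and platelets are known to make Ptgs1, and their markers moved in different ways. All 8 endothelial markers, among them Pecam1 and Cdh5, fell, and their sum was between 600 and 796 CPM in LPS hearts and between 1042 and 2061 CPM in saline hearts. Of 8 macrophage and monocyte markers 1 rose (Cd14) and 3 fell (Csf1r, Lyz2 and Ccr2). Their sums were 392 to 577 CPM in LPS and 448 to 635 CPM in saline hearts. Cd14 averaged 81.5 CPM in LPS and 14.6 CPM in saline hearts, and Lyz2 210 and 298 CPM, so both weigh on the sums. Of 5 tested platelet markers 1 rose and 0 fell by edgeR and DESeq2, with 0 lower at an unadjusted p under 0.05 (24.5 to 40.2 CPM in LPS and 19.0 to 25.9 CPM in saline hearts). No marker of these 3 lists was at 0 in both groups, while the platelet marker Gp6 had 7 reads in LPS and 0 in saline hearts. Their part in the fall of Ptgs1 was not tested.

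A ratio of 2 genes within a library does not depend on how libraries are scaled. Per base of gene length, Ptgs2 reads were 28.3 to 46.3 times Ptgs1 reads in LPS hearts, against 0.0901 to 0.13 times in saline replicates 1 to 4 and 3.63 times in saline replicate 5. The log2 ratio averaged 5.25 ± 0.29 in LPS hearts and -2.21 ± 2.28 in saline hearts (SD, n = 5 each), a difference of 7.46 (two-sided exact permutation p = 0.00794, or 0.0238 when adjusted over 3 ratios). That p is the smallest that the assignments of 10 libraries allow. It was fixed once Ptgs2 lay above and Ptgs1 below in every LPS heart, so it adds no evidence to the results of these genes. In the authors' FPKM, which scale counts by gene length and library size, Ptgs2 made up 96.6% to 97.9% of the 2 cyclooxygenases in LPS hearts. In saline replicates 1 to 4 it made up 8.13% to 11.4%, and in saline replicate 5 it made up 78.5%.

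The promoter stretches of Ptgs2 and Ptges, which rose, and of Ptgs1, which fell, are shown because these 3 genes moved most among the 9. Each is the 250 bases before the RefSeq start on GRCm38.p6, 5′ to 3′ on the gene's strand. Capitals mark matches, on either strand, to a GC box (GGGCGG) or to the C/EBP-like letters TTNNGNAA. Ptgs2 is chr1:150099781-150100030 (plus strand), Ptges is chr2:30903298-30903547 (minus strand) and Ptgs1 is chr2:36230176-36230425 (plus strand).
Ptgs2: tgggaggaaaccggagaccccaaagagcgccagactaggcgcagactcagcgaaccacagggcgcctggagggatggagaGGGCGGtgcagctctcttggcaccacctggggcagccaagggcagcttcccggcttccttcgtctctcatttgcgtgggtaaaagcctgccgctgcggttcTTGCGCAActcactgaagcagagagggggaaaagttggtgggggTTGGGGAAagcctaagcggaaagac
Ptges: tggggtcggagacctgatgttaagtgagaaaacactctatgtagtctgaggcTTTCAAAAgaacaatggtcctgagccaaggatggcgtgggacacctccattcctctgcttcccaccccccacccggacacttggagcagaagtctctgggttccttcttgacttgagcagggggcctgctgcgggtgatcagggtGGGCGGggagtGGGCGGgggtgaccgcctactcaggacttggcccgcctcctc
Ptgs1: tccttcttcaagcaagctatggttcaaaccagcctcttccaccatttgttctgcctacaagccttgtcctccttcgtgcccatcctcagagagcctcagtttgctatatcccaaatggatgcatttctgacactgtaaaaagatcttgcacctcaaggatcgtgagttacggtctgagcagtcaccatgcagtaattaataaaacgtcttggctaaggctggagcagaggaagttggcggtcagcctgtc
The Ptgs2 stretch holds C/EBP-like letters at 69 to 62 and at 25 to 18 bases before the start, the first of which reads as a match on both strands, and a GC box at 170 to 165. The Ptges stretch holds 2 GC boxes, at 53 to 48 and 42 to 37 bases, and C/EBP-like letters at 198 to 191. The Ptgs1 stretch holds no match to any motif searched. The kappaB motif, the CRE core TGACG, the E-box CACGTG, the AP-1 letters TGANTCA and the TATA box TATAAA, each sought on both strands, were not found in the 3 windows. Among 32851 promoter windows of the same length 36.8% hold the C/EBP-like letters and 32.7% a GC box, and the share was 7.25% for kappaB, 17.8% for the CRE core, 6.02% for CACGTG, 6.75% for AP-1 and 12.4% for the TATA box. A match describes letters and not a bound site. Bases outside the windows, further upstream or after the RefSeq start, were not searched in these 3 genes. A motif missing from a window may thus lie in those bases. GC content was 61.6% in the Ptgs2 window, 59.6% in that of Ptges and 48.0% in that of Ptgs1. The RefSeq start of Ptges lies inside the gene body given in the count table, so other transcripts may start elsewhere.

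Ptgs2 and Pla2g4a are neighbours on chromosome 1, with 138740 bases between their gene bodies and opposite strands. Ptges, Ptgis, Ptgds and Ptgs1 all lie on chromosome 2.

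Among the terminal synthases, Ptges rose while Ptgis and Ptgds did not pass. Ptges encodes the microsomal synthase of prostaglandin E2 that often works with Ptgs2 (chromosome 2, 30889471 to 30929863, minus strand). It was at 2.35, 4.12, 8.23, 6.31 and 6.69 CPM in LPS replicates 1 to 5, against 1.46, 1.505, 1.12, 0.868 and 2.91 CPM in saline replicates 1 to 5. The groups overlapped by 1 library on each side, since LPS replicate 1 lay below saline replicate 5. The log2 fold change of Ptges was 1.82 ± 0.37 (edgeR, adjusted p = 0.00146, 5 hearts a group), and 2.16 ± 0.34 without saline replicate 5.

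Ptgis, the prostacyclin synthase of vessel walls (chromosome 2, 167191805 to 167240604), was between 15.01 and 21.3 CPM in LPS hearts and between 17.8 and 21.9 CPM in saline hearts. Its log2 fold change was -0.05 ± 0.12 (edgeR, adjusted p = 0.748), and its sign turned without LPS replicate 2 (0.03) or saline replicate 1 (0.02). The antisense transcript gene 1110018N20Rik shares 156 exon bases with Ptgis and had 444 reads in all, against 2975 for Ptgis. The sources used here do not state if reads were counted by strand, so those in the shared stretch cannot be assigned to one of them.

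Ptgds, the lipocalin-type prostaglandin D2 synthase (chromosome 2, 25466709 to 25470046), was the most abundant of the 10 genes per length. It was at 227, 172, 236, 217 and 108 CPM in LPS replicates 1 to 5, against 105, 110, 178, 198 and 206 CPM in saline replicates 1 to 5. LPS replicate 5 lay with the lowest saline hearts and saline replicates 3 to 5 with the other LPS hearts, so the groups overlapped, and the difference did not pass (log2 fold change 0.27 ± 0.26, edgeR adjusted p = 0.452). Its FPKM was between 71.0 and 152 in LPS hearts and between 66.6 and 132 in saline hearts, which was 54.6% to 75.6% and 71.1% to 82.9% of the FPKM of the 10 genes.

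**Figure D2:**
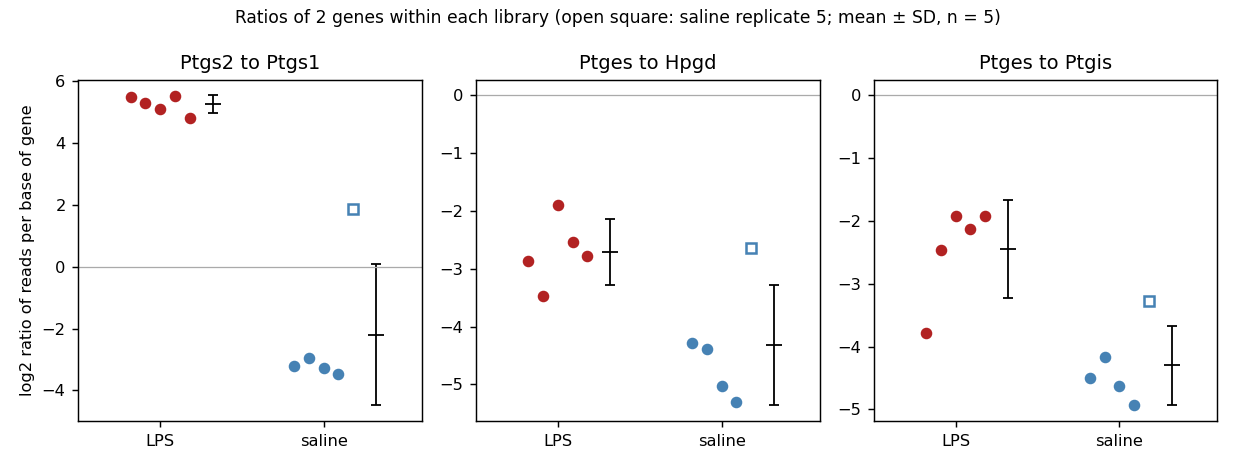
Log2 ratio of reads per base of gene (y axis) for Ptgs2 to Ptgs1, Ptges to Hpgd and Ptges to Ptgis in 5 LPS and 5 saline hearts; each point is 1 library, an open square is saline replicate 5, and dash and bar are mean ± SD. The Ptgs2 to Ptgs1 ratio lies above 0 in every LPS heart and in saline replicate 5, and below 0 in saline replicates 1 to 4.

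Relative to the synthase of prostacyclin, the synthase of prostaglandin E2 was higher in LPS hearts. The log2 ratio of Ptges to Ptgis averaged -2.44 ± 0.78 in LPS hearts and -4.30 ± 0.63 in saline hearts (SD, n = 5 each), a difference of 1.86 (two-sided exact permutation p = 0.0159, or 0.0238 when adjusted over 3 ratios). Ptgis still had more reads per base than Ptges in all 10 hearts, since the ratio was 0.073 to 0.265 in LPS hearts and 0.0329 to 0.103 in saline hearts. Of 7 other tested prostanoid synthases 0 rose and 2 fell by edgeR, 1 rose and 2 fell by DESeq2, and 1 was higher at an unadjusted p under 0.05, where 18.9% of all tested genes rose and 21.0% fell by edgeR. Hpgds, the prostaglandin D2 synthase of blood-derived cells, fell with a log2 fold change of -1.58 ± 0.29 (edgeR adjusted p = 0.000621), at 0.851 ± 0.243 CPM in LPS hearts and 2.53 ± 0.671 CPM in saline hearts (SD, n = 5 each). Tbxas1, the thromboxane synthase, fell by less (-0.72 ± 0.24, adjusted p = 0.0287).

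Hpgd, the enzyme that starts the breakdown of prostaglandins (chromosome 8, 56294585 to 56321043), was at 7.40, 19.8, 13.2, 15.8 and 19.7 CPM in LPS replicates 1 to 5, against 12.3, 13.7, 15.99, 15.1 and 7.78 CPM in saline replicates 1 to 5. The lowest LPS heart and saline replicate 5 lay together below the rest, and the groups overlapped. The log2 fold change of Hpgd was 0.22 ± 0.26 (edgeR, adjusted p = 0.538), and with total count scaling it was -0.07. Per base of gene length, Ptges reads were 0.09 to 0.267 times Hpgd reads in LPS hearts. They were 0.0254 to 0.0516 times in saline replicates 1 to 4 and 0.161 times in saline replicate 5, so the groups overlapped. The log2 ratio of Ptges to Hpgd averaged -2.71 ± 0.57 in LPS hearts and -4.32 ± 1.04 in saline hearts (SD, n = 5 each), a difference of 1.61 (two-sided exact permutation p = 0.0317, or 0.0317 when adjusted over 3 ratios). That call was lost without LPS replicate 3 or 4 or without any one of saline replicates 1 to 4 (differences of 1.37 to 1.62, adjusted p of 0.0556 to 0.0635). It was kept without LPS replicate 1, 2 or 5 (differences of 1.63 to 1.80, adjusted p of 0.0317 to 0.0476) and without saline replicate 5 (2.03, adjusted p = 0.0119).

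Prostaglandins enter cells through carriers before Hpgd acts on them. Of 6 tested genes of uptake, export and breakdown 2 rose and 0 fell by edgeR and DESeq2, with 0 lower at an unadjusted p under 0.05, and both that rose are carriers. Over all tested genes 18.9% rose and 21.0% fell, so 2 of 6 is no result about the group. Slco3a1 was at 149 ± 16.9 CPM in LPS hearts and 77.6 ± 13.8 CPM in saline hearts (SD, n = 5 each), with a log2 fold change of 0.94 ± 0.12 (edgeR, adjusted p = 3.62e-05). Slco2a1, the prostaglandin transporter, was at 12.3 ± 2.65 CPM in LPS hearts and 7.95 ± 1.66 CPM in saline hearts (0.63 ± 0.18, adjusted p = 0.0111).

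Among the receptors for prostaglandin E2, Ptger4 did not pass the threshold and Ptger2 was the lowest of the 10 genes. Ptger4 encodes the receptor EP4, which raises cyclic AMP (chromosome 15, 5206661 to 5244187). It was between 3.35 and 6.22 CPM in LPS hearts and between 4.43 and 6.74 CPM in saline hearts, and the log2 fold change was -0.12 ± 0.19 (edgeR, adjusted p = 0.651), or 0.0051 without LPS replicate 5. Ttc33, on the other strand, shares 82 exon bases with Ptger4 and had 3108 reads in all against 852, and without strand the reads of the shared bases cannot be told apart. Ptger2 encodes EP2, which also raises cyclic AMP (chromosome 14, 44988195 to 45003820). It had 2, 1, 2, 14 and 4 reads in LPS replicates 1 to 5, against 0, 1, 4, 2 and 4 reads in saline replicates 1 to 5, and did not pass the filter. LPS replicate 4 held 14 of the 23 LPS reads, and a difference was not detectable at this depth.

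Of 7 other prostanoid receptors 2 were tested, and 0 passed in edgeR or DESeq2 or at an unadjusted p under 0.05. Ptgir, the prostacyclin receptor, had a log2 fold change of 0.42 ± 0.22 (edgeR adjusted p = 0.14), at 6.35 ± 1.34 CPM in LPS hearts and 4.73 ± 1.48 CPM in saline hearts (SD, n = 5 each). Tbxa2r, the thromboxane receptor, did not pass the filter and was singled out after its values were seen. It had 7, 3, 2, 3 and 4 reads in LPS replicates 1 to 5, against 62, 68, 61, 38 and 9 reads in saline replicates 1 to 5. Every LPS heart lay below every saline heart, and saline replicate 5 lay nearest to the LPS hearts. No test is given for Tbxa2r, since it did not pass the filter with all 10 libraries. Without saline replicate 5 it passed and is counted among the genes that fell.

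In the leukotriene branch Alox5ap fell. It encodes FLAP, which hands arachidonic acid to 5-lipoxygenase (chromosome 5, 149264767 to 149288153). It was at 2.70, 2.57, 3.68, 2.21 and 1.89 CPM in LPS replicates 1 to 5, against 5.22, 6.30, 5.38, 4.92 and 3.62 CPM in saline replicates 1 to 5. Only LPS replicate 3 reached into the saline range, just above saline replicate 5. Alox5ap fell with a log2 fold change of -0.95 ± 0.21 (edgeR, adjusted p = 0.0026, 5 hearts a group), and -1.05 without saline replicate 5. Of 7 other tested lipoxygenase and leukotriene enzymes 0 rose and 4 fell by edgeR and by DESeq2, and 0 were higher at an unadjusted p under 0.05, against 18.9% rising and 21.0% falling over all tested genes. Ltc4s, the synthase of leukotriene C4, was at 0.504 ± 0.398 CPM in LPS hearts and 1.71 ± 0.704 CPM in saline hearts (log2 fold change -1.73 ± 0.48), and Ggt5, which processes leukotriene C4, fell by less (-0.75 ± 0.19). Lta4h, which makes leukotriene B4, and Dpep1, a dipeptidase of the same branch, fell as well (-0.51 ± 0.10 and -0.43 ± 0.11), while Alox5, the 5-lipoxygenase itself, had a log2 fold change of -0.17 and did not pass (unadjusted p = 0.214).

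The 2 tested receptors of leukotrienes and lipoxins went opposite ways. Cysltr1, a receptor for cysteinyl leukotrienes, fell to 1.12 ± 0.517 CPM in LPS hearts, against 3.01 ± 1.27 CPM in saline hearts (SD, n = 5 each; log2 fold change -1.43 ± 0.34, edgeR adjusted p = 0.0041). Fpr2, a receptor for lipoxin A4 and formyl peptides, rose to 11.5 ± 2.03 CPM in LPS hearts, against 1.12 ± 2.20 CPM in saline hearts (3.38 ± 0.94, adjusted p = 0.0202, and 6.29 without saline replicate 5). Alox5ap, Ltc4s and Cysltr1 are known in macrophages, whose markers and their sums are given above, and Fpr2 is known in neutrophils. Neutrophil markers summed to between 14.1 and 43.3 CPM in LPS hearts, to 25.3 CPM in saline replicate 5 and to at most 4.07 CPM in saline replicates 1 to 4. Of 4 tested neutrophil markers 2 rose, S100a8 and Csf3r, and 3 rose by DESeq2. The part of these cells in the changes was not tested.

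Genes of the epoxyeicosanoid branch, in which cytochrome P450 enzymes oxidise arachidonic acid and epoxide hydrolases remove the products, fell in 3 of 7 tested members and rose in 0 by edgeR and by DESeq2, with 0 higher at an unadjusted p under 0.05. Over all tested genes 21.0% fell and 18.9% rose by edgeR. Cyp2j9, an epoxygenase, fell to 0.575 ± 0.232 CPM in LPS hearts, against 2.40 ± 0.609 CPM in saline hearts (SD, n = 5 each; log2 fold change -2.07 ± 0.33, edgeR adjusted p = 0.000196). Ephx1, the microsomal epoxide hydrolase, fell (-0.96 ± 0.13, adjusted p = 5.6e-05). Ephx2, the soluble hydrolase and the most abundant of the list, had a log2 fold change of 0.08 and did not pass.

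**Figure D3:**
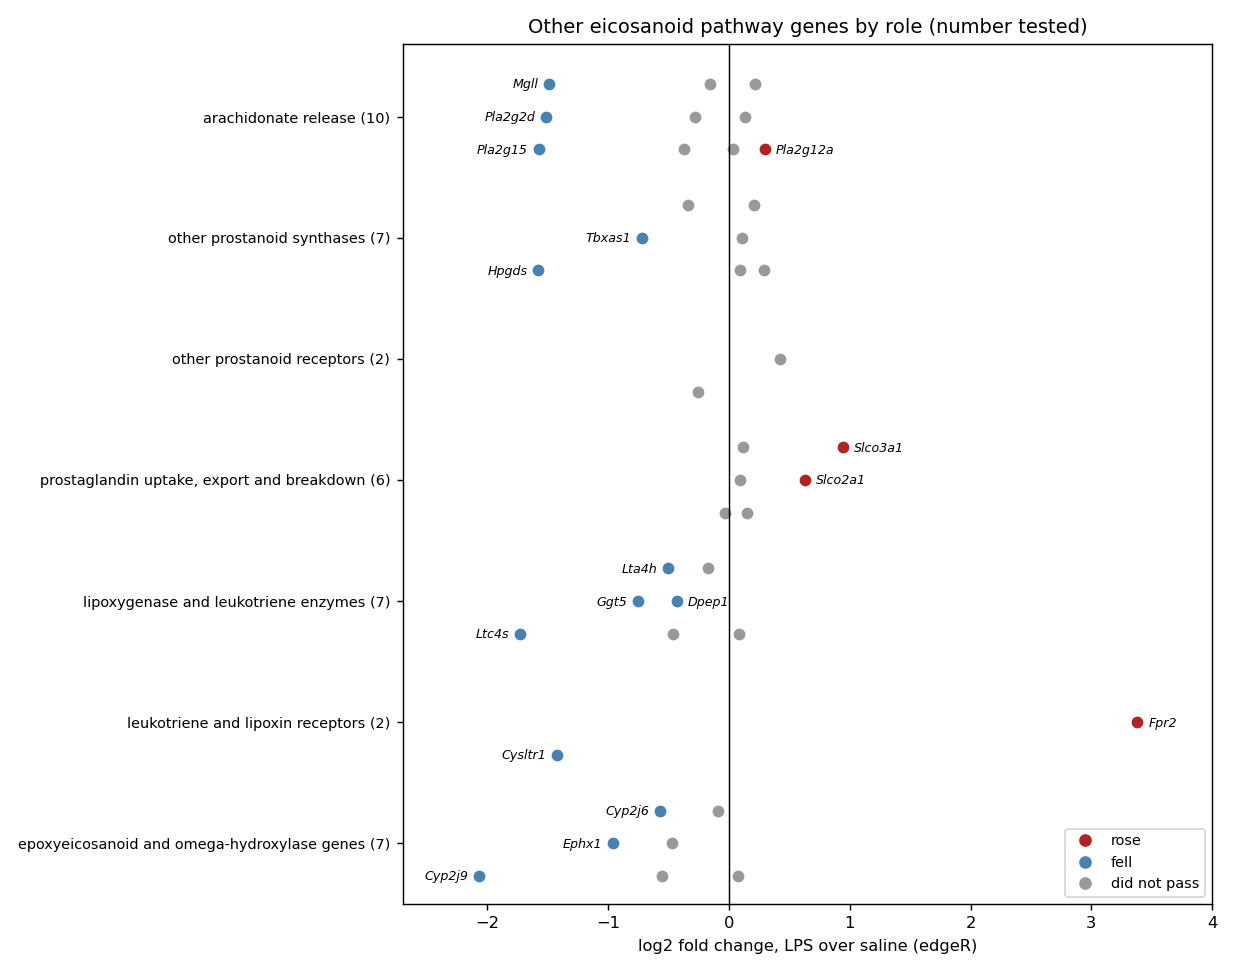
Log2 fold change, LPS over saline (x axis), of 41 other tested eicosanoid pathway genes in 7 groups by role; each point is 1 gene, red rose, blue fell and grey did not pass the threshold. The 4 genes that rose are Fpr2, Slco3a1, Slco2a1 and Pla2g12a, and 13 genes fell.

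Over the 7 groups 4 of 41 tested genes rose and 13 fell, which is 9.76% and 31.7%, against 18.9% and 21.0% of all tested genes. Without saline replicate 5 the counts were 6 and 16, while 21.0% and 22.9% of all tested genes rose and fell. Each of these counts holds 1 gene that did not pass the filter on low counts with all 10 libraries, Pla2g4c (rose) and Tbxa2r (fell). With all libraries the median log2 fold change of the 41 genes was -0.17, against -0.02 for all tested genes. With total count scaling, which moved the median of all genes by -0.27, 2 rose and 20 fell, while 12.3% and 41.6% of all genes did. In the authors' deposited table of Reactome terms, arachidonic acid metabolism held 47 genes, of which 5 were listed as up and 16 as down (p = 0.164, adjusted p = 0.536). The genes listed as differential in that term in the authors' deposited table included Ptgs1, Ptgs2, Ptges, Alox5ap and Pla2g4a.

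Per length, the order of the 10 genes differed between the groups. In LPS hearts Ptgds (71.0 to 152 FPKM) was followed by Ptgs2 (24.0 to 46.8), then by Hpgd (4.73 to 12.7) and Ptgis (6.27 to 8.93), which overlapped. Pla2g4a (1.66 to 2.92), Alox5ap (1.45 to 2.76) and Ptges (0.644 to 2.23) came next and overlapped, and Ptgs1 (0.69 to 1.10) and Ptger4 (0.547 to 1.00) lay lower, overlapping with the lowest Ptges value. In saline hearts Ptgds (66.6 to 132 FPKM) was followed by Hpgd (4.90 to 10.004) and Ptgis (7.26 to 8.97), then by Alox5ap (2.70 to 4.65) and Ptgs1 (2.32 to 3.86), then by Pla2g4a (0.656 to 1.20) and Ptger4 (0.702 to 1.07), each pair overlapping. Ptgs2 had the second highest median FPKM in LPS hearts, at 31.4, and 0.395 in saline hearts, next to Ptges at 0.39. Its saline range was 0.318 to 8.44 FPKM. The highest of these was saline replicate 5, where Ptgs2 lay above Ptgis (7.65) and Hpgd (4.90), so the saline order did not hold in that heart. Ptger2 was lowest in both groups, at no more than 0.236 FPKM in LPS and 0.0485 FPKM in saline hearts.

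For each of the 5 genes that passed, the gene with the nearest profile over the 10 libraries was taken, from 10094 candidates averaging 5 CPM or more, by the root-mean-square difference of centred log2 CPM. The profiles include the difference between the groups and the place of saline replicate 5, so likeness is a description of these 10 libraries. Nearest to Ptgs2 was Socs3, a feedback inhibitor of cytokine signalling, with a difference of 0.22 and averages of 266 CPM in LPS and 15.8 CPM in saline hearts. Nearest to Ptgs1 was the centrosomal gene Cep250 (0.16), to Ptges the small GTPase gene Rab32 (0.31), to Pla2g4a the kinase gene Mapk4 (0.18) and to Alox5ap the macrophage lectin gene Mgl2 (0.12).

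**Figure D4:**
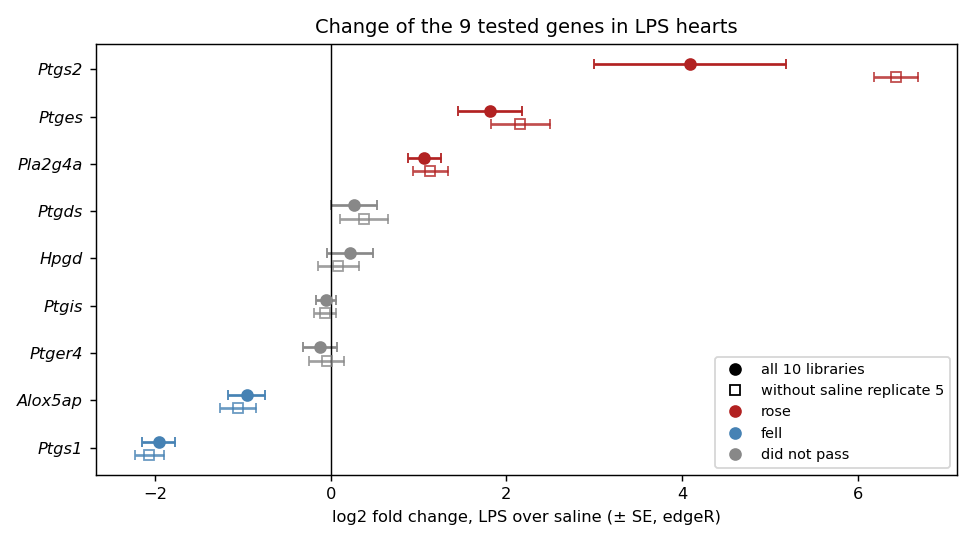
Log2 fold change, LPS over saline, with its SE (x axis) for the 9 tested genes; filled circles are fits to all 10 libraries and open squares fits without saline replicate 5, in red for genes that rose, blue for genes that fell and grey for those that did not pass. Ptgs2 moves most between the fits, with 4.09 against 6.44, and the sign of each of the 9 is the same in both.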

How the data were processed

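Heart RNA for 10 libraries (5 LPS, 5 saline) was extracted with Trizol and sequenced after Illumina TruSeq preparation, per the labels' protocols. The authors deposited read counts and FPKM per gene. Per the submitters' processing notes, Bowtie 0.12.2 and the mm9 build were used in a role not stated. Gene coordinates in the deposited counts equal GENCODE M21 (GRCm38) for all 10 genes and are given as GRCm38. The sources used here do not name the counting tool or say if it used strand. Of 2 other deposited tables, 20 columns were not used; 10 are named for 3 h although the labels give 24 h. P-values of Reactome terms are the authors' deposited values, by a method not stated, and the numbers of genes per term, up and down, come from the same table.

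The deposited counts were tested in edgeR 4.0.16 (R 4.3.3): filterByExpr (minimum count 10, minimum total 15), TMM scaling, robust quasi-likelihood F-test of LPS against saline without covariates, Benjamini-Hochberg adjustment over 13864 genes, threshold 0.05. SE were derived from the F statistic. CPM use library sizes times TMM factors; log2 CPM used a prior count of 2. FPKM served for levels between genes only. Ratios used 0.5 added reads per gene. Promoters come from RefSeq on GRCm38.p6 and were found for 8 of 10 genes, all but Ptgis and Alox5ap. Of 70 other pathway symbols 67 were in the table (68 rows). Named were all 10 genes, of each pathway group the 2 largest rises and falls past the threshold or else the most abundant gene, and the gene nearest to each of the 10 that passed; further genes are named to complete a count. Markers of 11 cell types were counted, and those that bear on a gene stand beside it. The 10 genes and all lists were chosen with earlier results of these data known. Each numbered library was taken as 1 replicate; the labels do not say whether mice were pooled, and p-values measure the spread between libraries. No pair of libraries of a group agreed within sampling noise (chi-square per degree of freedom at least 9.23). Alternatives were other scalings and filters, DESeq2 1.42.0, limma 3.58.1 voom, a replicate block and leaving out each library.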

Additional observations from a re-analysis of the deposited data

Results flagged for a closer look

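Ptgs2 in saline replicate 5 was at 36.5 CPM while the next highest saline heart was at 2.17 CPM, a gap of 0.978 of the range of its group (0.71 is the critical value for 5 samples). In the same library the log2 ratio of Ptgs2 to Ptgs1 was 1.86, far from the other saline hearts. Ptgis in saline replicate 1 was at 21.9 CPM, with the next saline heart at 18.6 CPM. Ptger2 in LPS replicate 4 was at 1.15 CPM, or 14 reads, with the next LPS heart at 0.291 CPM. Of 26 groups of values examined 4 were so marked. Chance marks about 1 in 20 groups where values are normal and groups independent. The groups here are linked, since the Ptgs2 to Ptgs1 ratio holds the same Ptgs2 value, so that rate is only a rough guide. The cause of the marked values was not tested.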

How the results depend on the processing

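The numbers of the 10 genes rising (3) and falling (2) were the same under all 19 alternatives. Leaving out 1 library gave log2 fold changes of -0.11 to 0.031 for Ptgis (0.031 without LPS replicate 2, 0.021 without saline replicate 1), -0.20 to 0.0051 for Ptger4 (0.0051 without LPS replicate 5), 0.09 to 0.40 for Hpgd and 3.81 to 6.44 for Ptgs2 (adjusted p up to 0.0412), and differences of 1.37 to 2.03 for the log2 ratio of Ptges to Hpgd. With total count scaling the log2 fold changes were -0.069 for Hpgd, -0.32 for Ptgis and -0.39 for Ptger4. None of these passed (edgeR adjusted p = 0.836, 0.061 and 0.0885). With the same scaling 2 of the other pathway genes rose and 20 fell. That scaling moved the median of all genes by -0.27 (upper quartile scaling by -0.16, with 14.4% of all genes rising and 31.8% falling). TMM factors lay between 0.829 and 0.958 in LPS libraries and between 1.004 and 1.146 in saline libraries. Without a filter on low counts, where 26214 genes were tested, 8 other pathway genes rose and 14 fell, while 10.7% of all genes rose and 11.5% fell, and Ptger2 had a log2 fold change of 1.41 (edgeR adjusted p = 0.222). The cause of these differences was not tested.

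Same-numbered libraries did not deviate together (correlations of -0.23 to 0.26 over 1000 genes). The labels do not say whether the numbers pair the libraries, and correlations this few cannot settle it. With a replicate block the calls of the 9 genes were kept, Ptgs2 had a log2 fold change of 5.57, and 4 other pathway genes rose and 14 fell. For the ratios the replicate block, a sign-flip test, gave differences of 7.46, 1.61 and 1.86 with adjusted p of 0.0938, 0.125 and 0.0938, and 5 pairs cannot give a p below 0.0625. Depth limits Ptger2 most, with 34 reads over all libraries.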

Other observations

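Among the other pathway genes 27 entries did not pass the filter, of which 8 had more reads in LPS hearts, 11 fewer and 7 none. Pla2g4c, a cytosolic phospholipase, had 10, 21, 8, 17 and 16 reads in LPS replicates 1 to 5, against 1, 2, 1, 0 and 4 in saline replicates 1 to 5. Every LPS heart lay above every saline heart. No test of Pla2g4c is given, since it did not pass the filter with all 10 libraries. Without saline replicate 5 it passed and is counted among the genes that rose. Mgst2 had 40 reads in LPS and 8 in saline hearts, and Alox15 had 39 and 10. These genes were singled out after their values were seen.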
